A study of Homo sapiens and Mus musculus with 10 samples.

Results

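The genes examined were CAMP, which encodes the cathelicidin precursor of the peptide LL-37, and 7 genes of cell surface receptors reported for that peptide: FPR2, P2RX7, P2RY11, CXCR2, EGFR, ERBB2 and IGF1R. They were chosen by name, are 8 of 63140 gene rows in the human expression table, and 6 of them were among the 14399 genes abundant enough to be tested. The measurements came from A375, an established human melanoma line with an activated BRAF gene. Cells of this 1 line were left untreated (Ctrl, n = 3) or received the peptide (LL-37, n = 3) at 80 µg/mL over 24 h, in biological triplicate per the series text, and poly(A) RNA was sequenced. The 4 mouse skin libraries of the series were not analysed here. Levels are TPM, transcript abundances corrected for transcript length and scaled to one total per library, so they can be compared between genes. Sequencing depth is unknown, so no counting interval can be given. Log2 changes are differences of log2(TPM + 1), LL-37 minus Ctrl, and understate how much low genes differ.

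Cathelicidin is made as an inactive precursor and stored in neutrophil granules or secreted by epithelia, where serine proteases release the active C-terminal peptide. Beside killing microbes, LL-37 acts on host cells through formyl peptide, chemokine and purine receptors. It also acts through receptor tyrosine kinases, in keratinocytes by release of membrane-bound ligands of the epidermal growth factor receptor. The added peptide carries no RNA, so CAMP reads come from the transcripts of the cells.

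CAMP (ENSG00000164047) lies on the plus strand of chromosome 3, chr3:48223347-48225491 in GRCh38 with GENCODE 29. The growth factor receptor genes EGFR (chr7:55019021-55211628), ERBB2 (chr17:39687914-39730426) and IGF1R (chr15:98648539-98964530), the purine receptor genes P2RX7 (chr12:121132819-121188032) and P2RY11 (chr19:10111538-10115372), and CXCR2 (chr2:218125289-218137253) and FPR2 (chr19:51752026-51770526) are also protein-coding genes on the plus strand. Promoter sequence from RefSeq (GRCh38.p14) was found for all 8. It is shown 5′ to 3′ on the plus strand for the peptide gene and for 2 receptor genes of the same class that differ in level, with CG dinucleotides in capitals. The CAMP stretch (chr3:48223245-48223346) ends before the first base that GENCODE 29 transcribes, and the EGFR (chr7:55018767-55019016) and IGF1R (chr15:98648289-98648538) stretches are the 250 bases before the first RefSeq start.
CAMP: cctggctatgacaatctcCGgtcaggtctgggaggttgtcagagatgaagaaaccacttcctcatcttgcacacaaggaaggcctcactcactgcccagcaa
EGFR: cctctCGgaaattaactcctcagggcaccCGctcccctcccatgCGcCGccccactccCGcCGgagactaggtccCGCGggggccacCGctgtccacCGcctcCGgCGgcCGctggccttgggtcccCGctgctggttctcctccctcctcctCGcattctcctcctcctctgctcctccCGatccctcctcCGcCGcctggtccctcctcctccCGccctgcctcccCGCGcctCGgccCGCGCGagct
IGF1R: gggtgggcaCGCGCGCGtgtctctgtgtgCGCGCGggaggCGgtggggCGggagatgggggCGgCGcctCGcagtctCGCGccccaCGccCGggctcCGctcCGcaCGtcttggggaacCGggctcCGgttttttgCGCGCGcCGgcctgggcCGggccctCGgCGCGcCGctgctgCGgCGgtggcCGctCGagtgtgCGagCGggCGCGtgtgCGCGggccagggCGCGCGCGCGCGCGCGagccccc

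The 250 bases before the RefSeq start held 1 CG dinucleotide at CAMP, 25 at the first EGFR start, 48 at IGF1R and 23 at ERBB2. A median promoter of the 34943 in the table held 11, and 99.7% held fewer than IGF1R. The windows of P2RX7 held 4, P2RY11 3, CXCR2 7 and FPR2 3 or 4 at its 2 starts. The ERBB2, P2RY11 and FPR2 windows lie wholly within exons that GENCODE 29 annotates. GGGCGG, the core of an SP1 box, occurred on either strand in 42.55% of all promoters, 2 times each in the EGFR and IGF1R windows shown and 1 time in that of P2RX7. TATAAA, the TATA box, occurred in 10.75% of all promoters and in none of the windows but that of the second EGFR start.

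LL-37 replicate 3 stood apart before any comparison was made. It correlated with the other 5 A375 libraries at 0.949 to 0.963 (tested genes), while those 5 correlated with each other at 0.985 to 0.992, and 12991 genes reached 1 TPM in it against 14304 to 14555. Of all tested genes, 73.5% had their lowest value of the 6 libraries there. The result of each tested member is therefore given over all 6 libraries and over the 5 that remain without this one. Of 11 melanoma and neural crest markers of the labelled line, 6 were tested. The highest in Ctrl were the neural crest factor SOX10 at 283.1 ± 15.8 TPM and the proteoglycan gene CSPG4 at 161.9 ± 10.6 TPM (SD, n = 3). The pigment gene TYR was listed at 0 in all libraries. The pigment cell genes MLANA, PMEL, DCT and TYRP1 averaged under 1 TPM in Ctrl and were not tested either. The extraction protocol names keratinocytes, but the keratinocyte genes KRT1, TP63 and DSG3 were listed at 0 in all 6 libraries and KRT5 in 5 of them. Of the 9 keratinocyte genes found, 3 were tested: KRT10 at 25.05 to 26.1 TPM in Ctrl, DSC3 at 2.18 to 2.35 and KRT14 at 1.43 to 1.66. The summed level of the list was 28.83 to 29.98 TPM in Ctrl and 21.39 to 26.81 with LL-37.

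In untreated cells, 6 of the 8 genes were expressed at 1 TPM or more in all 3 libraries. ERBB2, the ligandless partner of the epidermal growth factor receptor family, was the highest at 29.48, 27.71 and 30.78 TPM. P2RY11, a G protein-coupled receptor for extracellular ATP, was 19.41, 17.85 and 18.52 TPM, and IGF1R, the receptor of insulin-like growth factors, was 17.65, 16.44 and 19.54 TPM. The ranges of P2RY11 and IGF1R overlapped, and ERBB2 lay above both. These 3 genes were above 59.8% to 72.1% of tested genes in Ctrl level.

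The other 3 expressed genes were near the detection filter. CAMP was 1.88, 1.83 and 2.53 TPM in Ctrl, above 13.1% of tested genes. P2RX7, an ATP-gated cation channel, was 1.26, 1.26 and 1.58 TPM. EGFR, the epidermal growth factor receptor, was 1.16, 1.08 and 1.27 TPM, above 3.40% of tested genes. CAMP lay above P2RX7 and EGFR in Ctrl, and the ranges of P2RX7 and EGFR overlapped. With LL-37 the order of means was ERBB2, P2RY11, IGF1R, CAMP, EGFR and P2RX7, and among these neighbours only IGF1R and CAMP did not overlap. ERBB2 exceeded EGFR 24.2- to 25.7-fold in the 3 Ctrl libraries. Of the expressed genes, IGF1R and ERBB2, with 48 and 23 CG dinucleotides before their RefSeq starts, were high in Ctrl. CAMP and P2RX7, with 1 and 4, were low. EGFR, with 25 at its first start, was low, and P2RY11, with 3, was high. The ERBB2 and P2RY11 windows are exonic, and a link of CG content to level was not tested.

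The 2 chemoattractant receptors were at or near 0. CXCR2, the neutrophil receptor of CXC chemokines, was 0.02, 0.03 and 0.13 TPM in Ctrl and was listed at 0 in all 3 LL-37 libraries. FPR2, the formyl peptide receptor of phagocytes, was listed at 0 in all 6 libraries, as were 55.25% of all gene rows. Values are deposited to 2 decimals, so CXCR2 in Ctrl replicates 1 and 2 lay only 2 and 3 rounding steps above 0. In all, 128 gene rows were above 0 in every Ctrl library and at 0 in every LL-37 library, and 39 showed the reverse. Without LL-37 replicate 3 these counts were 220 and 140. Neither receptor passed the filter. For CXCR2, limma without the filter gave an adjusted p of 0.786, and the two-sided exact permutation test gave p = 0.1, the smallest that 3 against 3 libraries allow.

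**Figure D1:**
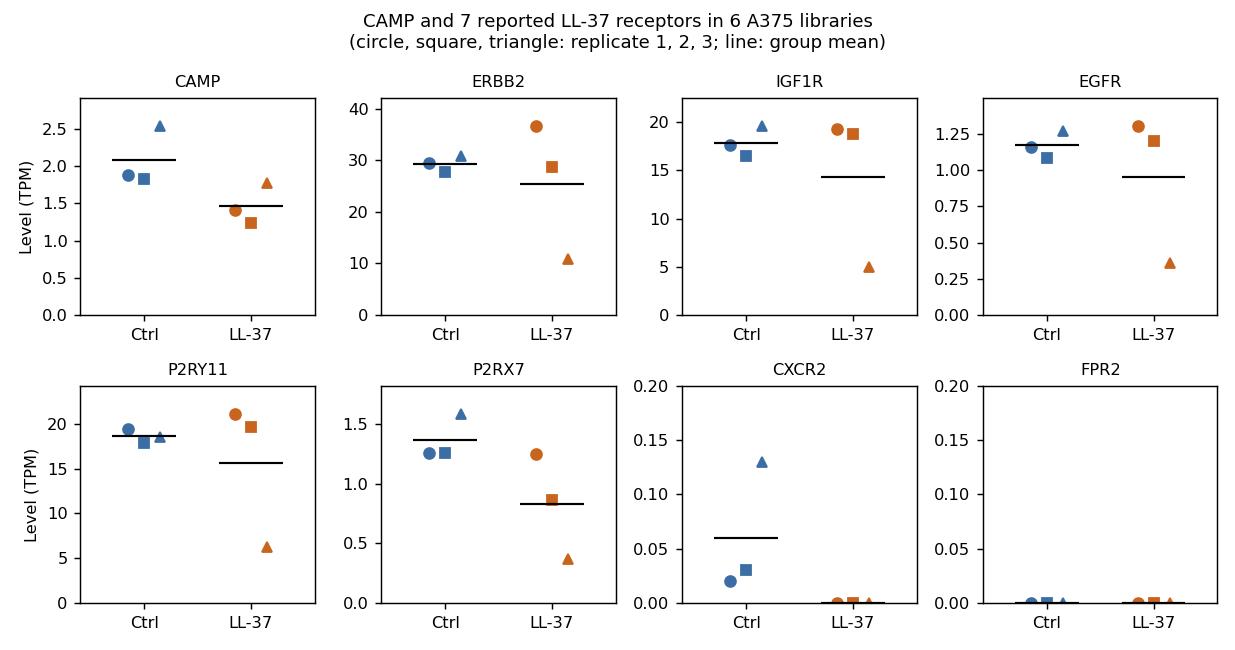
Level in TPM (linear axes from 0, with a scale for each gene) of CAMP and the 7 receptor genes in the 3 Ctrl (blue) and 3 LL-37 (orange) libraries; each point is 1 library, with a symbol for each replicate number, and the line is the group mean. CAMP is lower in every LL-37 library, while ERBB2, IGF1R, EGFR and P2RY11 are low in LL-37 replicate 3 only.

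None of the 6 tested genes passed an adjusted p under 0.05 with LL-37, over 6 libraries or over the 5 without LL-37 replicate 3 (limma, Benjamini-Hochberg over 14399 genes). With all libraries, 0% of tested genes passed, and 2.52% had an unadjusted p under 0.05, none of them a member. Without LL-37 replicate 3, 0.118% passed and 9.01% had an unadjusted p under 0.05, among them CAMP. The median log2 change of the 6 was -0.37 against -0.2 for all tested genes, and without LL-37 replicate 3 it was 0.07 against -0.0039. With all libraries the 2 groups did not overlap for CAMP and P2RX7, both lower with LL-37. Groups were apart in this way for 12.4% of tested genes, with 10.3% of tested genes in the lower direction.

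CAMP was 1.41, 1.23 and 1.77 TPM with LL-37, so that each treated library lay below each untreated one. Its mean was 2.08 ± 0.391 TPM in Ctrl against 1.47 ± 0.275 with LL-37 (SD, n = 3 each). The log2 change was -0.32 ± 0.18 (SE, limma, adjusted p = 0.739, 95% interval -0.74 to 0.10). Without LL-37 replicate 3 it was -0.40 ± 0.16, with an unadjusted p of 0.0396 and an adjusted p of 0.521 (limma). Over 6 libraries, median-of-ratios scaling brought the log2 change of CAMP to -0.14 and quantile normalization to -0.11 (limma, adjusted p = 0.846 and 0.892). LL-37 replicate 3 held 85.1% of the CAMP Ctrl mean and was the highest of the 3 treated libraries, where each tested receptor was lowest. The two-sided exact permutation test of CAMP over 3 against 3 libraries gave p = 0.1, the smallest possible. Over the 6 libraries CAMP had a Pearson correlation of 0.39 with P2RX7 and of -0.11 to -0.03 with the other 4 tested receptors, as a description. Over the 5 libraries without LL-37 replicate 3 it was 0.893 with P2RX7, -0.63 with P2RY11 and -0.18 to -0.01 with the other 3. In bulk RNA, a smaller share of expressing cells and less RNA per cell cannot be told apart.

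The genes that control or process cathelicidin were mostly absent or showed overlapping groups. Of 12 genes of cathelicidin transcription and vitamin D, 7 were tested, none passed in either setting (limma, with 0 and 1 at an unadjusted p under 0.05), and all 7 overlapped with all libraries. VDR, the vitamin D receptor that switches on CAMP, was 3.82 ± 0.292 TPM in Ctrl against 2.60 ± 1.48 with LL-37, a log2 change of -0.52 over 6 libraries and -0.12 over the 5 without LL-37 replicate 3. Its target CYP24A1, which breaks vitamin D down, was listed at 0 throughout, and so was the granulocyte factor CEBPE. CEBPB, a stress-responsive factor of the same family, was 71.05, 71.84 and 71.85 TPM in Ctrl and 91.96, 89.11 and 63.05 TPM with LL-37. LL-37 replicates 1 and 2 lay above Ctrl and replicate 3 below it. The log2 change of CEBPB was 0.16 over 6 libraries and 0.33 over the 5 without LL-37 replicate 3 (limma, adjusted p = 0.739 and 0.0911).

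Proteases that cut the precursor were at or near 0. The skin kallikreins KLK5 and KLK7 were listed at 0 in all libraries, and PRTN3, the neutrophil protease 3 gene, was at most 0.11 TPM. Of 12 processing genes, only the inhibitors SERPINB1 and SERPINA1 were tested, and neither passed (limma, with 0 and 1 at an unadjusted p under 0.05 over 6 and over 5 libraries). SERPINB1, an inhibitor of neutrophil proteases, was 31.07 ± 1.34 TPM in Ctrl against 27.3 ± 0.487 with LL-37, with groups that did not overlap. This direction turned under median-of-ratios scaling and quantile normalization, with log2 changes of 0.06 and 0.0037 against -0.18.

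Of the neutrophil genes, MPO, CTSG, CSF3R, FCGR3B and ITGAM were listed at 0 in all 6 libraries, and 11 of 12 neutrophil and myeloid markers were under 1 TPM everywhere. The exception was the lysosomal gene CD68, which made up nearly all of the list's summed level of 34.3 to 40.9 TPM in Ctrl and 20.4 to 40.8 TPM with LL-37. Among 20 other antimicrobial protein genes, 14 were listed at 0 throughout, including all 6 defensins on the list, and 3 were tested. LCN2, which withholds iron from bacteria, was 2.47, 3.21 and 3.84 TPM in Ctrl and 6.97, 7.35 and 5.75 TPM with LL-37, with no overlap. LYZ, the lysozyme gene, was 1.90, 1.87 and 2.09 TPM in Ctrl and 1.07, 1.18 and 2.53 TPM with LL-37. LYZ was lower than Ctrl in LL-37 replicates 1 and 2 and above it in replicate 3, with a log2 change of -0.23 over 6 libraries and -0.47 over 5. None of the 3 passed (limma, with 1 and 2 at an unadjusted p under 0.05).

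The receptor tyrosine kinase genes were low in 1 treated library. ERBB2 was 36.54, 28.75 and 10.87 TPM with LL-37, and IGF1R was 19.3, 18.76 and 4.95 TPM. EGFR was 1.3, 1.2 and 0.36 TPM. For all 3, LL-37 replicates 1 and 2 lay within or above the Ctrl range, and replicate 3 held 37.1%, 27.7% and 30.8% of the Ctrl mean. With all libraries their log2 changes were -0.36 ± 0.41 for ERBB2, -0.50 ± 0.48 for IGF1R and -0.19 ± 0.23 for EGFR (SE, limma, adjusted p = 0.740, 0.739 and 0.744). Without LL-37 replicate 3 the direction turned, with log2 changes of 0.14 ± 0.11, 0.09 ± 0.10 and 0.05 ± 0.15 (SE, limma, adjusted p = 0.812, 0.874 and 0.968). The 95% intervals were then -0.11 to 0.39, -0.13 to 0.31 and -0.30 to 0.41. ERBB2 was 24.0- to 30.2-fold above EGFR in the LL-37 libraries. The end of ERBB2 overlaps MIEN1, a gene on the opposite strand, which was 80.02 to 89.01 TPM in the other 5 libraries and 115.29 TPM in LL-37 replicate 3, where ERBB2 was lowest. The labels' protocols name a stranded kit, but whether reads were counted by strand is unknown. How reads from the shared stretch were divided between the pair is therefore unknown.

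**Figure D2:**
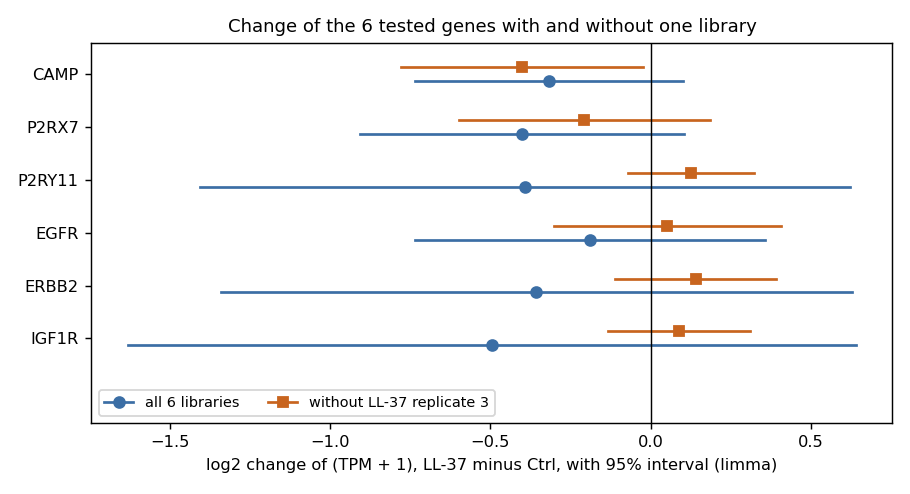
Log2 change of TPM + 1, LL-37 minus Ctrl, for the 6 tested genes, with 95% intervals from limma, for all 6 libraries (blue circles) and without LL-37 replicate 3 (orange squares). The estimates of ERBB2, IGF1R, EGFR and P2RY11 move from below 0 to above 0 and their intervals narrow, while CAMP stays below 0 at -0.32 and -0.40.

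P2RY11 showed the same single low library. It was 21.07, 19.69 and 6.28 TPM with LL-37, with replicates 1 and 2 above every Ctrl library and replicate 3 at 33.8% of the Ctrl mean. Its log2 change was -0.39 ± 0.43 over 6 libraries and 0.13 ± 0.09 over the 5 without LL-37 replicate 3 (SE, limma, adjusted p = 0.739 and 0.769). Without that library the groups did not overlap for P2RY11, CAMP and P2RX7, which held for 25.1% of all tested genes. P2RY11 shares exons with the readthrough gene PPAN-P2RY11, which was 1.30 to 3.61 TPM, and its first bases overlap PPAN, a ribosome assembly gene at 56.79 to 67.95 TPM in the other 5 libraries. The far end of P2RY11 overlaps EIF3G, a translation factor gene on the opposite strand (chr19:10115017-10119918), at 466.97 to 477.93 TPM in Ctrl and 357.98 TPM in LL-37 replicate 3. How reads were divided among these genes is unknown. The ratio of P2RY11 to PPAN was 0.280 to 0.314 in those 5 libraries and 0.173 in LL-37 replicate 3.

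P2RX7 was 1.25, 0.86 and 0.37 TPM with LL-37, all below the lowest Ctrl value of 1.26, from which replicate 1 differed by the last decimal place. The log2 change was -0.40 ± 0.21, and -0.21 ± 0.17 without LL-37 replicate 3 (SE, limma, adjusted p = 0.739 and 0.829). Unlike the other 4 tested receptors, P2RX7 was lower in both settings. In LL-37 replicate 3, 5 of the 5 tested receptors had their lowest value of the 6 libraries, as did 73.5% of all tested genes.

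LL-37 replicate 3 was lower for genes with long transcripts. With tested genes cut into 4 equal classes by length, its median log2 difference from the Ctrl mean was -0.13 in the shortest class (up to 2057 bases) and -1.04 in the longest (5155 bases or more). In LL-37 replicates 1 and 2 the class medians lay between -0.05 and 0.04. CAMP, with a longest transcript of 745 bases, was at -0.15 in replicate 3. IGF1R (12235 bases) was at -1.66, ERBB2 (4930) at -1.35, EGFR (9821) at -0.67 and P2RX7 (5161) at -0.79. EGFR and P2RX7 are near 1 TPM, where adding 1 shrinks a log2 difference. Replicate 3 held 30.8% and 27.1% of their Ctrl means, against 27.7% for IGF1R. P2RY11, at -1.43, was far lower than the median of the shortest class, in which its 1943 bases place it. After removal of each library's length trend, a step chosen after seeing the data, the log2 changes of LL-37 against Ctrl were -0.31 for P2RY11, -0.12 for IGF1R, -0.10 for P2RX7, -0.07 for ERBB2 and 0.19 for EGFR. The trend was fitted over tested genes of all levels, with no allowance for a low one. CAMP was at -0.30, against -0.32 without this step. No member passed the threshold after it, and what made this library differ was not tested.

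**Figure D3:**
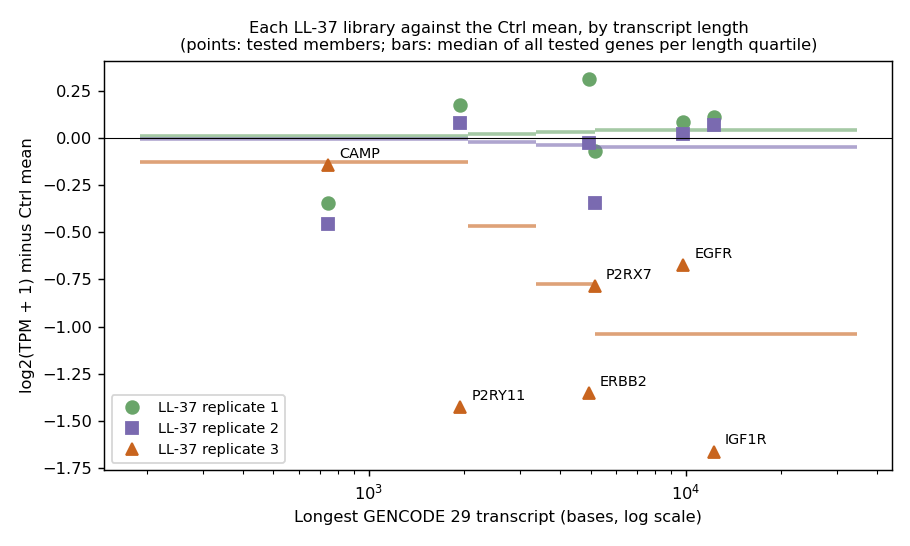
Log2(TPM + 1) in each LL-37 library minus the Ctrl mean, against the longest GENCODE 29 transcript (bases, log axis); points are the 6 tested genes, labelled at LL-37 replicate 3 (triangles), and horizontal bars are medians of all tested genes in 4 length classes. In replicate 3 the bars go from -0.13 to -1.04 with length, and P2RY11 lies far below the bar of its class.

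For CXCR2, whose own transcript was near 0, 4 of 9 ligand and relative genes were tested. The list was chosen with earlier results of these data known. All 4 tested ones were higher in every LL-37 library than in every Ctrl library, against 2.13% of all tested genes, given as a description. CXCL8, the strongest neutrophil attractant among them, was 19.84, 18.54 and 14.15 TPM in Ctrl and 24.72, 24.85 and 34.97 TPM with LL-37. CXCL1 was 13.08, 13.53 and 12.82 TPM in Ctrl and 20.11, 19.42 and 20.97 TPM with LL-37, without overlap. CXCL2 was 2.36 ± 0.317 TPM in Ctrl against 4.71 ± 0.892 with LL-37, and CXCL3 3.96 ± 0.316 against 6.97 ± 0.0781 (SD, n = 3). None passed (limma): the median log2 change of the 4 was 0.67, all had an unadjusted p under 0.05, and the adjusted p was 0.739 for each. Without LL-37 replicate 3 the median was 0.62 and the adjusted p was 0.0792 to 0.277. CXCR1, the second receptor of CXCL8, and the ligand genes CXCL5 and PPBP were listed at 0 throughout, and the ligand gene CXCL6 was at most 0.05 TPM.

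FPR2 and its relatives FPR1 and FPR3 were all listed at 0. ANXA1, whose product is a resolving ligand of FPR2, was 342.63, 327.16 and 327.31 TPM in Ctrl and 273.92, 277.14 and 272.03 TPM with LL-37. The 3 treated libraries, replicate 3 included, lay close together below Ctrl. The log2 change of ANXA1 was -0.28, and -0.27 without LL-37 replicate 3 (limma, adjusted p = 0.739 and 0.120). Under median-of-ratios scaling it was -0.02, and -0.17 with length trends removed. APP, the amyloid precursor gene, was 273.1 ± 13.6 and 202.9 ± 77.8 TPM and did not overlap either, with log2 changes of -0.51 over 6 libraries and -0.14 over the 5 without LL-37 replicate 3. Of the 7 genes listed with the formyl peptide receptors, 3 were tested and none passed (limma, 1 at an unadjusted p under 0.05 in either setting).

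In the epidermal growth factor axis, a ligand and a partner gene were far higher in level than EGFR. TGFA, an EGFR ligand, was 145.2 ± 3.82 TPM in Ctrl against 121.4 ± 32.4 with LL-37, and 137.8 TPM or more in LL-37 replicates 1 and 2. ERBB3, the kinase-poor partner of ERBB2, was 143.66, 122.84 and 137.84 TPM in Ctrl and 165.71, 151.72 and 46.45 TPM with LL-37. It was above Ctrl in LL-37 replicates 1 and 2 and far below it in replicate 3. ERBB2 itself was also far below Ctrl in replicate 3, but its replicate 2 lay within the Ctrl range. ERBB4 was at most 0.17 TPM. Amphiregulin (AREG) was 4.95, 3.67 and 4.33 TPM in Ctrl and 6.63, 5.85 and 5.80 TPM with LL-37, and betacellulin (BTC) was 1.70 ± 0.358 and 2.43 ± 0.502 TPM. Both ligands were higher in all 3 LL-37 libraries, with log2 changes of 0.42 and 0.34 (limma, adjusted p = 0.739 each), and of 0.45 and 0.23 without LL-37 replicate 3 (0.348 and 0.794).

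The genes of the sheddases that release these ligands were lower in each treated library (ADAM17) or overlapped (ADAM10). ADAM17 was 27.34, 24.71 and 26.56 TPM in Ctrl and 24.64, 22.3 and 12.07 TPM with LL-37. Its highest treated value, 24.64 TPM, lay only just under its lowest Ctrl value, 24.71 TPM. ADAM10 was 75.99 ± 5.55 and 53.8 ± 25.95 TPM. The log2 changes of ADAM17 and ADAM10 were -0.45 and -0.63 over 6 libraries, and both were -0.15 without LL-37 replicate 3. SHC1, an adaptor that links these receptors to the RAS pathway, was 201.5 ± 14.8 and 158 ± 68.5 TPM. Of 12 tested genes of this axis, none passed (limma, with 0 and 2 at an unadjusted p under 0.05 over 6 and over 5 libraries). With all libraries, 9 of the 12 overlapped, while 12.4% of all tested genes did not. The median log2 change of the 12 was -0.33 over 6 libraries and -0.0028 over the 5 without LL-37 replicate 3.

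Around IGF1R, the growth factors IGF1 and IGF2 were at 0 to 0.01 TPM, while 6 of the 7 genes of IGF binding proteins on the list were tested. The exception, IGFBP1, was 0.04 to 0.24 TPM. IGFBP3 was 97.19, 84.06 and 89.99 TPM in Ctrl and 163.44, 153.06 and 119.56 TPM with LL-37, higher in each treated library. Its log2 change was 0.67 ± 0.15 with all libraries (SE, limma, adjusted p = 0.739) and 0.80 without LL-37 replicate 3, where it passed (adjusted p = 0.0111). IGFBP5 was 14.57, 14.19 and 16.94 TPM in Ctrl and 8.51, 9.93 and 2.21 TPM with LL-37, and IGFBP2 was 55.2 ± 5.21 and 41.2 ± 6.88 TPM, both without overlap. The log2 change of IGFBP5 was -1.22 over 6 libraries and -0.67 over the 5 without LL-37 replicate 3. IGFBP6 was 144 ± 8.78 and 126.1 ± 5.66 TPM, and its direction turned under median-of-ratios scaling (log2 change 0.06 against -0.19). INSR, the insulin receptor, was 3.73 ± 0.506 and 2.92 ± 1.83 TPM. Of 13 tested genes of the insulin and IGF axis, IGFBP3 was the only one that passed in either setting (limma). In each setting 3 had an unadjusted p under 0.05. Of all tested genes, 0% passed over 6 libraries and 0.118% without LL-37 replicate 3, and 2.52% and 9.01% had an unadjusted p under 0.05. The list was chosen with earlier results of these data known.

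**Figure D4:**
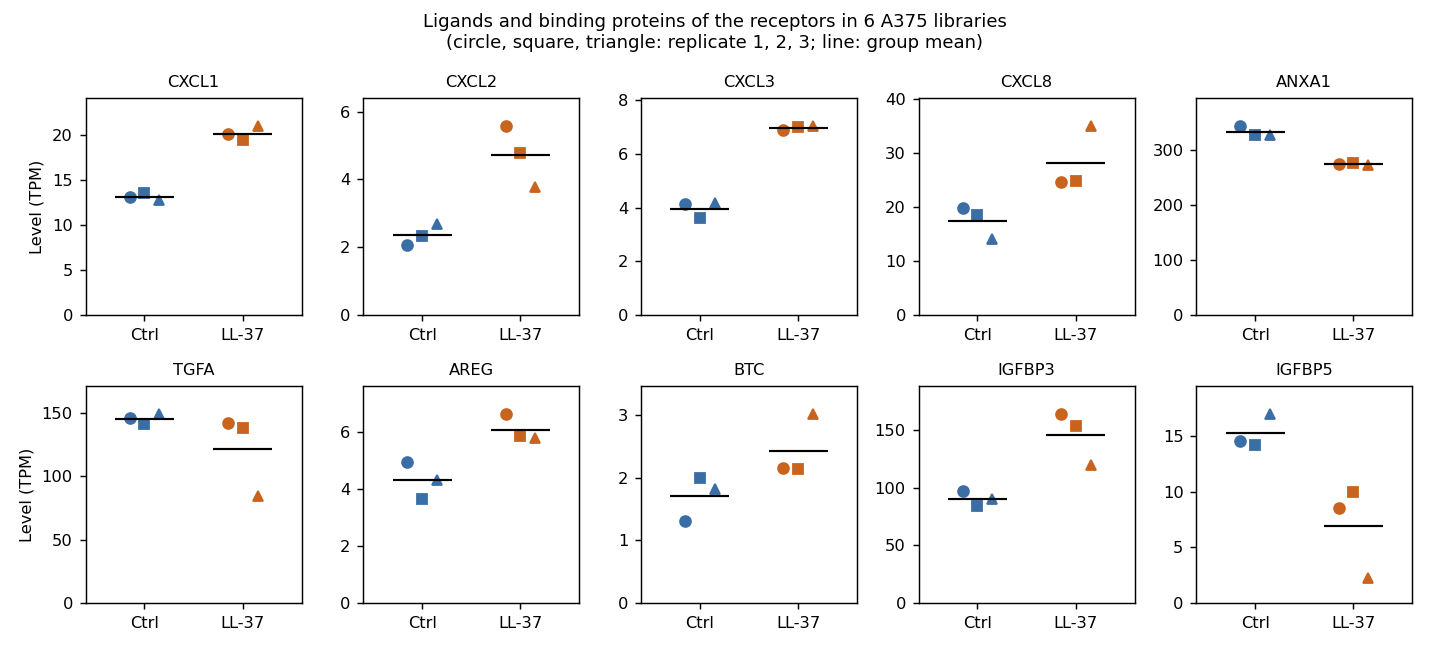
Level in TPM (linear axes from 0, with a scale for each gene) of 4 CXCR2 ligands, the FPR2 ligand ANXA1, 3 EGFR ligands and 2 IGF binding proteins in the 3 Ctrl (blue) and 3 LL-37 (orange) libraries, with group means as lines. The chemokines, AREG, BTC and IGFBP3 are higher and ANXA1 and IGFBP5 lower in every LL-37 library than in any Ctrl library.

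Among the purine receptor genes listed, P2RY11 had the highest level in Ctrl, and the next, P2RX5, averaged 5.11 TPM. Of 23 other genes of purine reception and extracellular ATP handling, 16 were under 1 TPM in every library, including the inflammasome genes NLRP3 (at most 0.48 TPM) and PYCARD (listed at 0), which act below P2RX7. With all libraries the 7 tested genes all overlapped. Without LL-37 replicate 3, 3 of the 7 were higher without overlap, as were 12.3% of all tested genes. None of the 7 passed (limma, 0 at an unadjusted p under 0.05 in either setting). NT5E, which makes adenosine, was 76.4 ± 2.66 and 67.25 ± 21.1 TPM. PANX1, an ATP release channel, was 11.8 ± 0.681 and 9.56 ± 4.63 TPM, and P2RX4, the channel most like P2RX7, was 4.11 to 4.56 TPM in Ctrl and 4.11 to 4.90 TPM with LL-37.

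Other reported partners of LL-37 were mostly at or near 0. Of 14, the receptor genes FPR1, FPR3, MRGPRX2 and the integrin gene ITGAM were listed at 0, and 9 were under 1 TPM everywhere. TLR3, a sensor of double-stranded RNA, was 3.64, 3.60 and 4.23 TPM in Ctrl and 2.71, 3.05 and 1.09 TPM with LL-37, without overlap. TLR4, the lipopolysaccharide receptor, was 7.44 ± 0.584 and 5.04 ± 2.02 TPM. GAPDH, whose glycolytic enzyme has been described as an intracellular LL-37 partner, was 8549 ± 471.7 and 7151 ± 1065 TPM. Over 6 libraries the log2 changes of TLR3, TLR4 and GAPDH were -0.61, -0.54 and -0.27, and over the 5 without LL-37 replicate 3 they were -0.31, -0.25 and -0.14. The GAPDH change over 6 libraries depended on the scaling: it was -0.02 under median-of-ratios scaling and -0.37 under quantile normalization. Of the 5 tested, none passed (limma, with 0 and 2 at an unadjusted p under 0.05 over 6 and over 5 libraries).

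A list of 13 other growth factor receptor genes of melanoma held 11 receptor tyrosine kinases and also IGF2R and NGFR, which are not kinases. Of the 10 tested, all but PDGFRA had their lowest value in LL-37 replicate 3, as did 73.5% of all tested genes. None of the 10 passed (limma, with 0 and 1 at an unadjusted p under 0.05). Their median log2 change was -0.46 over 6 libraries and 0.05 over the 5 without LL-37 replicate 3. EPHA2 and DDR1, the 2 highest, were 74.1 ± 3.63 and 93.9 ± 5.13 TPM in Ctrl, above ERBB2. With LL-37 they were 61.1 ± 29.7 and 68.2 ± 33.85 TPM. Their log2 changes were -0.42 and -0.61 over 6 libraries, and 0.08 and -0.10 without LL-37 replicate 3.

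The genes whose values over the 6 libraries were most like those of CAMP were ATG7, IMPA1 and C12orf76, with Pearson correlations of 0.988, 0.980 and 0.971 (n = 6 libraries). Over the 5 libraries without LL-37 replicate 3 the same correlations were 0.988, 0.996 and 0.977. For IGF1R they were POM121, PLAGL2 and TFE3 at 0.9998 or more, and 0.991 to 0.995 over 5 libraries. For EGFR they were VANGL1, MEF2D and MAVS, for ERBB2 ENSG00000290385, GDNF and NCS1, for P2RY11 PC, COQ8A and CORO2B, and for P2RX7 INTS7, ENSG00000283515 and MXRA7. These are the highest of 14399 genes over 6 points, and are given as a description. Among the members, IGF1R and EGFR correlated at 0.998 over 6 libraries and 0.965 over 5, while P2RY11 and P2RX7 went from 0.858 to -0.33.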

How the data were processed

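The authors deposited 1 table of TPM for the human libraries, with a row per Ensembl gene. GRCh38 is among the builds in the submitters' processing notes, and a stranded poly(A) kit is named per the labels' protocols. Aligner, quantifier and strand setting: not given in the sources used here. The TPM unit divides by transcript length and library total, so a change in abundant genes moves all others, and depth is unknown. Symbols came from a gene name table (62541 of 63140 identifiers), transcript lengths and coordinates from GENCODE 29. Of 10 keratinocyte markers, 9 were matched.

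Genes that reached 1 TPM in 3 or more of the 6 A375 libraries were tested as log2(TPM + 1) with limma 3.58.1 in R 4.3.3 (intensity trend, two-sided, Benjamini-Hochberg over 14399 genes, threshold 0.05). The members and gene lists were chosen with earlier results of these data known. The rule for named genes took, from each list, genes past the threshold with all libraries or without LL-37 replicate 3, the 2 highest in Ctrl, and up to 3 others without overlap. It also took the 3 genes most correlated with each tested member. The cell type markers printed fell outside this rule. ERBB3, ADAM10, VDR, INSR, PPAN, MIEN1, EIF3G, P2RX4, P2RX5, IGF2R, NGFR, PDGFRA and the genes named for a level at or near 0 were named after their values were seen. Same-numbered Ctrl and LL-37 libraries deviated from their group means with correlations of 0.0912, -0.196 and -0.168. The LL-37 mean includes replicate 3, which stood apart, so these correlations can neither show nor exclude pairs. The numbers were not treated as pairs. In data simulated on 14399 genes, 200 were changed, drawn from genes with a mean log2(TPM + 1) above 2. CAMP, P2RX7 and EGFR lie below that level, so the shares found do not cover them. The changes were 2-fold or 4-fold in TPM + 1. The test found 25% of the 2-fold and 77% of the 4-fold changes given the spread over 6 libraries. Given that over the 5 without LL-37 replicate 3, it found 87% and 98%. Of the 104 and 194 genes past the threshold in the simulated data, 2 and 9 had not been changed. In the deposited data, LL-37 replicate 3 held the lowest value of the 6 libraries for 73.5% of tested genes. Whether the shares found hold where a library is low for so many genes was not tested. The alternatives tried and their effect are given at the end. The mouse table was not used here. P-values measure only the spread between these libraries of 1 line.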

Additional observations from a re-analysis of the deposited data

How the results depend on the processing

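Values were recomputed with pseudocounts of 0.1 or 5, and with the filter dropped or raised to 5 TPM. At the 5 TPM filter CAMP, P2RX7 and EGFR were not tested. Median-of-ratios scaling, quantile normalization, removal of mitochondrially encoded genes, a replicate block and a fit without the intensity trend were also tried. Each library was left out in turn as well. Removal of length trends, alone or together with leaving out LL-37 replicate 3, was chosen after seeing the data. No member passed the threshold in any of these settings that tested it. The count of genes past the threshold was 0 over 6 libraries and ranged from 0 to 17 with each library left out (17 without LL-37 replicate 3). It was 13 when length trends were removed as well, and 0 in every other setting. Of the members, 6 were expressed in Ctrl, and 3 at a minimum of 5 TPM. Median-of-ratios scaling shifted the centre of all tested genes from -0.2 to 0.007 (log2). With the replicate block 0 genes and 0 members passed. Whether same-numbered libraries were pairs is not known. With each library left out in turn, log2 changes ranged from -0.40 to -0.21 for CAMP, -0.57 to -0.21 for P2RX7, -0.67 to 0.13 for P2RY11, -0.33 to 0.053 for EGFR, -0.69 to 0.14 for ERBB2, -0.80 to 0.089 for IGF1R, -0.70 to 0.076 for EPHA2, -0.67 to 0.24 for ERBB3, -0.65 to 0.079 for INSR, -0.41 to 0.051 for NT5E, -0.66 to 0.042 for PANX1 and -0.34 to 0.11 for PPAN. The upper value of each of these, P2RX7 included and CAMP apart, was without LL-37 replicate 3. With length trends removed, EGFR was at 0.19 and NT5E at 0.011. With that library left out too, values were 0.12 for P2RY11, 0.054 for EGFR, 0.14 for ERBB2, 0.088 for IGF1R, 0.077 for EPHA2, 0.24 for ERBB3, 0.080 for INSR, 0.052 for NT5E, 0.040 for PANX1 and 0.10 for PPAN. Median-of-ratios scaling gave 0.060 for IGFBP6, 0.013 for NT5E, 0.064 for PPAN and 0.064 for SERPINB1, and quantile normalization 0.0037 for SERPINB1. The cause of these turns was not tested. Every other setting kept the direction of each of the 6 tested members that it covered. Low levels limit CAMP, P2RX7 and EGFR, for which no counts are known.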
